A study of Mus musculus with 4 samples.

Results

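The Th2 cytokine locus is a stretch of mouse chromosome 11 that holds the cytokine genes Il4, Il13 and Il5 beside Rad50 and Kif3a, which encode no cytokine. These 5 genes were chosen by name and position, with earlier results of these data known. All 5 were found by Ensembl ID among the 38282 genes listed in the deposited tables. Their levels were compared in naive CD4+ T cells from the spleen of C57BL/6 mice, kept until day 4 in a Th0 culture (Th0) or in a Th0 culture with dopamine (Th0+Dopa). Each group held 2 libraries, numbered 2 and 3. The libraries numbered 2 lie in one table of FPKM values (fragments per kilobase of transcript, relative to all mapped fragments) and those numbered 3 in another, made separately. Th0 usually means activation without cytokines that steer a T helper lineage, and the labels give no dose of dopamine and name no separate mice or cultures for the libraries. The p-values therefore reflect only how far these libraries spread, which may be technical.

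T helper 2 (Th2) cells make IL-4, IL-13 and IL-5, the cytokines of allergic inflammation and of defence against worms. IL-4 and IL-13 signal through receptors that share the IL-4 receptor alpha chain and activate STAT6, while IL-5 drives the growth and survival of eosinophils. In T cells the cytokine genes are opened together, and introns at the 3′ end of Rad50 hold a locus control region that acts on them. GATA3, MAF, JUNB, NFAT and IRF4 promote transcription of the cytokines, and T-bet and RUNX3 restrain it. Basophils, mast cells, eosinophils and innate lymphoid cells can also make some of these cytokines.

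FPKM summed to between 687066 and 880583 per library, with 15974 to 19177 genes above 0. From the steps between low values, 1 fragment on a 1 kb transcript was worth 0.155 to 0.157 FPKM in 3 libraries and 0.206 FPKM in Th0 3. By these steps Th0 3 appeared the shallowest, although scaling by the authors would move this estimate too. Th0 3 also had the most genes above 0 (19177), so its depth is uncertain. By the estimate from the steps, Il5 rested on 78 to 140 fragments per library and Kif3a on 78 to 212, a counting error of 11.3% at the lowest for both. Il4 rested on 243 to 946 fragments, Il13 on 335 to 1052 and Rad50 on 470 to 603, with errors of 6.42%, 5.46% and 4.61% at the lowest. Genes with several transcripts have only an approximate count here. T cell genes were abundant in every library. Cd4 stood at 122 and 123 FPKM in Th0 and at 115 and 119.8 FPKM with dopamine, while Cd8a did not exceed 0.853 FPKM in any library. The other CD8 gene examined, Cd8b1, stood at 3.76 and 3.34 FPKM in Th0 and at 5.98 and 4.19 FPKM with dopamine. Differences are Th0+Dopa minus Th0 on the log2(FPKM + 1) scale, as the mean of the 2 within-table differences ± SE. A gene was called when its limma adjusted p was under 0.05. Of 11423 tested genes, 717 (6.28%) were called higher and 501 (4.39%) lower. With libraries scaled to a common FPKM sum these counts were 376 and 1064, and the median difference of all genes moved from 0.027 to -0.20. Calls in either direction made up 10.7%.

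The 5 genes span 158 kb (GRCm38, coordinates from GENCODE M21). Kif3a lies on the plus strand at chr11:53567379-53601967, Il4 on the minus strand at chr11:53602982-53618669, Il13 on the minus strand at chr11:53631324-53634702, Rad50 on the minus strand at chr11:53649519-53707319 and Il5 on the plus strand at chr11:53720794-53725106. Kif3a and Il4 are convergent, with their 3′ ends facing each other. The annotated Il4 gene begins 1014 bases beyond the end of Kif3a, but only a non-coding Il4 transcript reaches that far. The 3 coding Il4 transcripts end 10.5 kb from Kif3a. The stranded library kit keeps strand, but no source used here says whether counting used it, so reads near these ends are uncertain.

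The promoters of the 3 cytokine genes and of Kif3a are shown because Il4, Il13 and Kif3a rose together while Il5 did not pass the test. Each line gives the 250 bases before the RefSeq start on the gene's own strand (RefSeq, GRCm38.p6), 4 of the 5 genes having an entry; Rad50 has none in the table used.
Il4 promoter, minus strand, chr11:53618666-53618915: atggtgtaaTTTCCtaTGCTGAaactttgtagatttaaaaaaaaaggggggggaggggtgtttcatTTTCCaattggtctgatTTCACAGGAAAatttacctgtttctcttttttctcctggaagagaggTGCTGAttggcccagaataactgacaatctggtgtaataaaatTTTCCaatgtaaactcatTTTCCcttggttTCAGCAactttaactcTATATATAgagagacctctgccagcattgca
Il13 promoter, minus strand, chr11:53634703-53634952: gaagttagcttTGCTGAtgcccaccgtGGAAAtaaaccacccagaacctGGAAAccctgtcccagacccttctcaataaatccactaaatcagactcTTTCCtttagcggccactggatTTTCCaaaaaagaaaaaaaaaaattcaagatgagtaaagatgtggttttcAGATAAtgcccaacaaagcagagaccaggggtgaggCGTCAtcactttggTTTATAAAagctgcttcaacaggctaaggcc
Il5 promoter, plus strand, chr11:53720544-53720793: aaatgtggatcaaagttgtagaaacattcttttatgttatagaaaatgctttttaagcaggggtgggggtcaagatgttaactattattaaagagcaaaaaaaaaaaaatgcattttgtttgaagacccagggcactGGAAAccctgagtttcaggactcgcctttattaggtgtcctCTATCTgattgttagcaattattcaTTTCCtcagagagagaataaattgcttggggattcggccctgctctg
Kif3a promoter, plus strand, chr11:53567119-53567368: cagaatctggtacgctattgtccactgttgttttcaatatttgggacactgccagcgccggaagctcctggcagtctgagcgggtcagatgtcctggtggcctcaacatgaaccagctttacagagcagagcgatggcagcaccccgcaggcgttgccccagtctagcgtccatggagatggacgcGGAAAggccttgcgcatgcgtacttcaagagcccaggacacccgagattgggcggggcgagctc
Capitals mark matches, on either strand, to short strings known from binding sites. NFAT was searched as its core GGAAA, AP-1 as its palindrome TGANTCA, STAT6 as its spaced palindrome TTCNNNNGAA and MAF as its core TGCTGA. The GATA factors were searched as AGATAA, as the variant TGATAA and as the variant AGATAG. T-box factors were searched as TCACACC, the cyclic AMP response element as TGACG, and the TATA box as TATAAA or as the variant TATATA. RefSeq gives Il4 a further start inside the gene, which is not shown.

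The Il4 window held 5 copies of GGAAA, and 0.39% of 32851 promoter windows of the same length held 5 or more. Its 3 copies of TGCTGA were matched or exceeded in 0.146% of windows. It also held 1 match to TTCNNNNGAA (5.85% of windows), which overlaps a GGAAA copy. Overlapping TATATA matches (at least 1 match in 5.25% of windows) ended 24 bases before the start. The Il13 window held 4 copies of GGAAA (at least that many in 1.59% of windows), AGATAA (9.99%), 1 TGCTGA (16.1%), 1 TGACG (17.8%) and TATAAA (12.4%). TATAAA matched on both strands, overlapping, while the 12.4% counts windows with a match on either strand. The Il5 window held 2 copies of GGAAA (at least 2 in 21.4%) and 1 AGATAG (7.71%). The Kif3a window held 1 GGAAA (55.6%) and no match to the other strings. It was also richer in GC (58.8%) than the cytokine windows (37.6% for Il4 and Il5, 43.2% for Il13), against a median of 52.4% over all windows. TGATAA (7.94% of windows), TGANTCA (6.75%) and TCACACC (3.33%) matched in none of the 4. The shares are over windows of any GC content, so the low GC content of the cytokine windows was not allowed for. A match is a string of letters and not a measured binding site.

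Il4 and Il13 rose with dopamine, and Il5 did not pass the test. Il4, the cytokine that both marks and induces Th2 cells, stood at 85.5 and 88.5 FPKM in Th0 2 and Th0 3 and at 262 and 219 FPKM in Th0+Dopa 2 and Th0+Dopa 3. Both dopamine libraries lay above both Th0 libraries, a separation seen upward in 31.4% of all tested genes and in either direction in 57%. Within the tables Il4 was 3.06-fold and 2.47-fold higher, and its log2 difference was 1.45 ± 0.12 (95% interval 1.16 to 1.75, limma adjusted p = 0.00298). Only 154 tested genes (1.35%) were called higher with a difference at least that large. Among tested genes ordered by FPKM, Il4 ranked 1073 and 1041 in the Th0 libraries and 370 and 394 with dopamine. Without limma's trend the adjusted p of Il4 was 0.0507. It was 0.167 without Th0 2, 0.247 without Th0 3, 0.127 without Th0+Dopa 2 and 0.08996 without Th0+Dopa 3, in fits that called at most 4 genes of all tested.

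Il13, which drives mucus production and airway hyperreactivity in the lung, stood at 64.4 and 57.3 FPKM in Th0 2 and 3 and at 137 and 121 FPKM with dopamine. The groups did not overlap, as in 57% of all tested genes. The rise was 2.12-fold in both tables, a log2 difference of 1.07 ± 0.10 (interval 0.82 to 1.33, limma adjusted p = 0.00447). Without the trend the adjusted p was 0.0616. It was 0.169 without Th0 2, 0.292 without Th0 3, 0.213 without Th0+Dopa 2 and 0.1396 without Th0+Dopa 3.

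Il5, the growth factor of eosinophils, was the lowest of the 3 cytokine genes in every library. It stood at 7.91 and 11.2 FPKM in Th0 and at 13.5 and 14.3 FPKM with dopamine, so both dopamine libraries were above both Th0 libraries. Such an upward separation was seen in 31.4% of all tested genes. The within-table folds were 1.71 and 1.27. Its log2 difference of 0.51 ± 0.17 did not pass (interval 0.08 to 0.94, unadjusted p = 0.0273, limma adjusted p = 0.126). The difference of Il5 was 0.28 with a common FPKM sum (adjusted p = 0.374), 0.30 without Th0 2 and 0.72 without Th0 3.

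Kif3a, the motor subunit of kinesin-2, which carries cargo along microtubules and builds cilia, rose beside the cytokine genes. It stood at 10.001 and 10.1 FPKM in Th0 and at 20.8 and 20.1 FPKM with dopamine, with little spread within either group. The folds were 2.08 and 1.995 and the log2 difference 0.96 ± 0.14 (interval 0.60 to 1.32, limma adjusted p = 0.0161). Without the trend its adjusted p was 0.0711. It was 0.213 without Th0 2, 0.316 without Th0 3, 0.219 without Th0+Dopa 2 and 0.147 without Th0+Dopa 3.

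Rad50, a DNA repair protein whose gene carries the locus control region, stood at 37.4 and 41.9 FPKM in Th0 and at 36.4 and 40.8 FPKM with dopamine. The groups overlapped, and within each table the dopamine library was at 0.974 of its Th0 library. The log2 difference was -0.037 ± 0.11 (interval -0.32 to 0.24, limma adjusted p = 0.871), so a change as large as that of Kif3a lies outside the interval. Rad50 was at -0.29 with libraries scaled to a common FPKM sum and at 0.085 after a correction for GC content and transcript length, past the threshold in neither (adjusted p = 0.241 and 0.663).

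**Figure D1:**
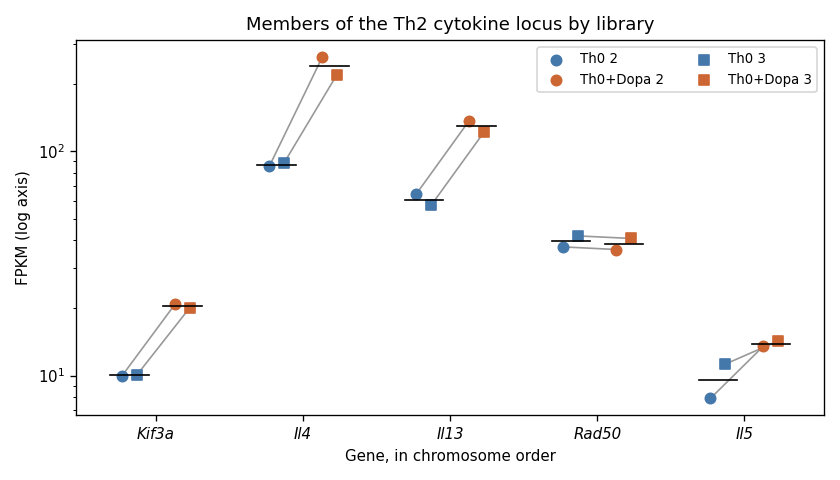
FPKM (log axis) of the 5 genes in chromosome order, in each library; circles are the libraries numbered 2 and squares those numbered 3, grey lines join libraries of one table and black bars are group means of 2 libraries, set across the separate tables. Il4, Il13 and Kif3a are higher in both Th0+Dopa libraries, Il5 is 1.71-fold and 1.27-fold higher, and Rad50 is level at 36.4 to 41.9 FPKM.

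In all, 3 of the 5 genes were called higher and 0 lower, against 6.28% and 4.39% of all tested genes. The choice of genes was made with earlier results of these data known, so this count is not independent support. In Th0 the order of FPKM, which is per transcript length, was Il4, Il13 and Rad50, followed by Il5 and Kif3a, whose values overlapped (7.91 and 11.2 against 10.001 and 10.1). With dopamine, Kif3a stood above Il5 in both libraries. Ratios within a library need no scaling between libraries. Il4 over Rad50 was 2.28 and 2.11 in Th0 2 and 3 and 7.18 and 5.36 with dopamine. Il13 over Rad50 went from 1.72 and 1.37 to 3.75 and 2.97. Il5 over Rad50 went from 0.211 and 0.268 to 0.371 and 0.349, and Kif3a over Rad50 from 0.267 and 0.240 to 0.572 and 0.492. The groups did not overlap in these ratios. The share of all genes whose ratio to Rad50 does not overlap was not computed, and for FPKM itself it was 57%.

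The folds of the cytokine genes differed in size. Il4 made up 54.2% and 56.4% of the summed FPKM of Il4, Il13 and Il5 in the Th0 libraries and 63.5% and 61.7% in the dopamine libraries. The share of Il13 was 40.8% and 36.5% against 33.2% and 34.2%, and that of Il5 was 5.01% and 7.16% against 3.28% and 4.02%. The share of Il4 was higher, and those of Il13 and Il5 lower, in both tables. The sum itself was 158 and 157 FPKM in Th0 and 412 and 355 FPKM with dopamine. These shares and ratios are given as values. Differences between the genes were not tested, and for a single value an exact permutation test within 2 tables cannot give a two-sided p below 0.5.

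Around the 5 genes, 39 others are annotated within 500 kb (chr11:53067379-54225106). Of these, 14 were listed at 0 in all libraries, 11 were tested, and the 28 untested genes did not exceed 1.10 FPKM in any library. Among the tested neighbours 1 was called higher and 1 lower, against 6.28% and 4.39% of all tested genes, with a median of -0.11. Uqcrq, a subunit of respiratory complex III with its start at -188 kb from that of Il4, on the Kif3a side, rose from 108 and 102 FPKM to 313 and 246 FPKM, by 1.39 ± 0.11 (limma adjusted p = 0.00298). Aff4, a scaffold of the super elongation complex, fell from 63.1 and 74.8 FPKM to 39.2 and 43.03 FPKM, by 0.73 on the log2 scale (adjusted p = 0.0168). Without limma's trend neither was called (adjusted p = 0.0511 for Uqcrq and 0.104 for Aff4), and neither was with any library left out. With no block Aff4 had an adjusted p of 0.0515.

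Between Uqcrq and Kif3a, the septin gene Sept8 stood at 21.9 and 15.9 FPKM in Th0 and at 31.01 and 25.7 FPKM with dopamine. Its groups did not overlap, as in 57% of all tested genes, and its difference of 0.57 ± 0.13 missed the threshold (adjusted p = 0.0512). Sept8 was called higher with a pseudocount of 0.1 or 0.5 and with a filter at a mean of 5 FPKM (adjusted p = 0.0357, 0.0439 and 0.0389). With a common FPKM sum Hspa4, a heat shock protein gene, was called lower (-0.44, adjusted p = 0.0346). No tested neighbour on the Il5 side was called in any setting. The interferon regulatory factor gene Irf1, the nearest tested neighbour on the Il5 side, stood at 231 and 251 FPKM in Th0 and at 239 and 209.7 FPKM with dopamine. Its difference was -0.11 ± 0.12 (limma adjusted p = 0.611). Gm17334 lies within Irf1 on the other strand, so both values are uncertain. Further out, 522 kb beyond Il5, Csf2, which encodes the growth factor GM-CSF, rose from 8.14 and 8.49 FPKM to 20.8 and 22.6 FPKM, by 1.29 ± 0.15 (adjusted p = 0.00741). Il3, its neighbour, had 0.306 to 1.19 FPKM and lay under the filter.

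**Figure D2:**
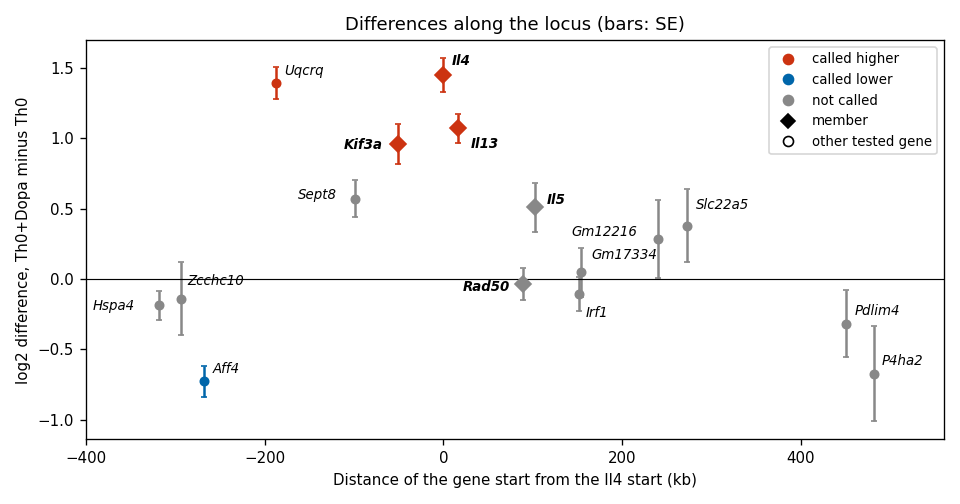
Log2 difference (Th0+Dopa minus Th0, bars are SE) of the 5 genes (diamonds) and of the 11 other tested genes within 500 kb (circles), against the distance of each gene's start from that of Il4 in kb. Kif3a, Il4 and Il13 lie side by side and are called higher, Rad50 is at -0.037 and Il5 at 0.51, and of the neighbours Uqcrq is called higher and Aff4 lower.

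Genes with the most similar pattern were found by the distance between their 2 within-table log2 differences and those of each cytokine gene, among 5922 tested protein-coding genes with a mean of at least 10 FPKM. The pattern has only 2 values, so it is a weak description. Nearest to Il4 were Chchd10 (distance 0.070), Znhit2, Uqcrq (0.084) and the histone genes Hist1h2bg and Hist1h2bn. Nearest to Il13 were Pparg (0.050), a nuclear receptor of Th2 cells, the IL-12 receptor chain Il12rb1, Abcb9, Bdh1 and the histone gene Hist1h2ah. Nearest to Il5 were Aurkaip1, Ddx56, Nxt1, Commd5 and Samhd1, within a distance of 0.0232. Histone genes are near-identical copies, and their single values are uncertain.

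Genes for the receptors and signalling proteins of the 3 cytokines went both ways. Of 16 tested genes 1 was called higher and 2 lower, against 6.28% and 4.39% of all tested genes. An unadjusted limma p under 0.05 was found for 9 of the 16, against 3177 of all 11423 tested genes. Their median was -0.19 against 0.027 for all tested genes. Il4ra, the chain shared by the IL-4 and IL-13 receptors, stood at 80.8 and 71.4 FPKM in Th0 and at 112 and 89.8 FPKM with dopamine. Its difference was 0.39 ± 0.11 (limma adjusted p = 0.0753). Il2rg, the common gamma chain, stood at 178 and 194 FPKM in Th0 and at 118 and 161 FPKM with dopamine (-0.43 ± 0.12, adjusted p = 0.08095), and Stat6 at 47.3 and 41.8 against 40.6 and 40.8 FPKM (-0.12 ± 0.12, adjusted p = 0.548). Il13ra1 did not exceed 0.544 FPKM, and Il13ra2 was listed at 0 in every library. Socs1, an inhibitor of cytokine signalling, rose from 19.7 and 20.6 FPKM to 60.6 and 40.5 FPKM (1.26 ± 0.18). Csf2rb, the beta chain shared by the IL-5, IL-3 and GM-CSF receptors, fell by 1.47 on the log2 scale, and the phosphatase gene Ptpn6 by 0.46. Ptpn6 was not called with no block (adjusted p = 0.0782), and none of the list was without limma's trend. With a common FPKM sum 5 of these genes were called lower, Il2rg among them.

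Transcription factors known to act on the locus were among the genes that rose. Of 20 tested activators 6 were called higher and 0 lower by limma, against 6.28% and 4.39% of all tested genes. This list was likewise chosen with earlier results of these data known, so the count is not independent support. Their median was 0.095, and 8 had an unadjusted limma p under 0.05, against 3177 of all 11423 tested genes. Junb went from 97.2 and 81.6 FPKM to 274 and 201 FPKM, by 1.39 ± 0.11 (limma adjusted p = 0.00242), close in size to Il4. Maf, which acts on the Il4 promoter, rose from 2.09 and 2.43 FPKM to 6.29 and 6.67 FPKM (1.20 ± 0.22, adjusted p = 0.0292). Jund, Gfi1, Nfil3 and Irf4 rose by 1.16, 0.67, 0.64 and 0.51. Gata3, the factor that defines Th2 cells, stood at 15.9 and 17.3 FPKM in Th0 and at 17.0 and 19.4 FPKM with dopamine, overlapping between the groups (0.12 ± 0.14, interval -0.22 to 0.46, adjusted p = 0.608). With a common FPKM sum the list's median was -0.14, with 3 called higher and 1 lower, and Gfi1, Nfil3 and Irf4 were not called. The 6 calls became 1 without limma's trend, 3 with no block (Gfi1, Nfil3 and Irf4 lost) and 0 with any library left out, and Maf and Irf4 were not called with libraries scaled to a common sum of T cell identity genes. Jund had 0.23 after the correction for GC content and length (adjusted p = 0.353).

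Of 11 tested repressors 1 was called higher and 1 lower, against 6.28% and 4.39% of all tested genes, with a median of -0.16. Tbx21, which encodes T-bet, rose from 31.4 and 25.9 FPKM to 54.4 and 48.2 FPKM (0.82 ± 0.12, limma adjusted p = 0.0140), but not with a common FPKM sum (0.57, adjusted p = 0.0572). Ezh2, the H3K27 methyltransferase, fell by 0.47, but not with no block (adjusted p = 0.114), and without limma's trend neither was called. Bcl6, a repressor of Th2 genes, stood at 1.15 and 1.18 FPKM in Th0 and at 0.347 and 0.635 FPKM with dopamine, under the filter.

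Th2 genes outside the locus went both ways. Of 15 tested, 3 were called higher and 2 lower, against 6.28% and 4.39% of all tested genes, with a median of 0.048. Cyp11a1, a steroid synthesis enzyme of Th2 cells, rose from 44.9 and 36.4 FPKM to 136 and 103 FPKM (1.52 ± 0.11, limma adjusted p = 0.00180), Pparg rose by 1.06 and Crlf2, a receptor chain for TSLP, by 0.77. The opioid precursor gene Penk fell by 2.97 and the IL-33 receptor gene Il1rl1 fell by 1.81. Il1rl1 had 0.769 and 0.911 FPKM with dopamine and passed the filter only through Th0. After the correction for GC content and length Crlf2 had 0.0022 (adjusted p = 0.995), and it was not called with a common FPKM sum (adjusted p = 0.0929). With no block the 5 calls became 2, with Pparg, Crlf2 and Il1rl1 at adjusted p of 0.0588, 0.0504 and 0.0714, and without the trend they also became 2. Of 11 tested cytokines of other T helper programs, Csf2 rose, and Il2 and Il6 fell by 0.93 and 1.26, with a list median of -0.031. Il6 was not called with no block (adjusted p = 0.0838), and without the trend 1 of the 3 calls was left. Ifng, the Th1 cytokine, stood at 4.50 and 4.17 FPKM in Th0 and at 3.94 and 3.63 FPKM with dopamine (-0.16 ± 0.22, adjusted p = 0.684). The distribution of each list is shown in the plot of log2 differences by gene list.

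**Figure D3:**
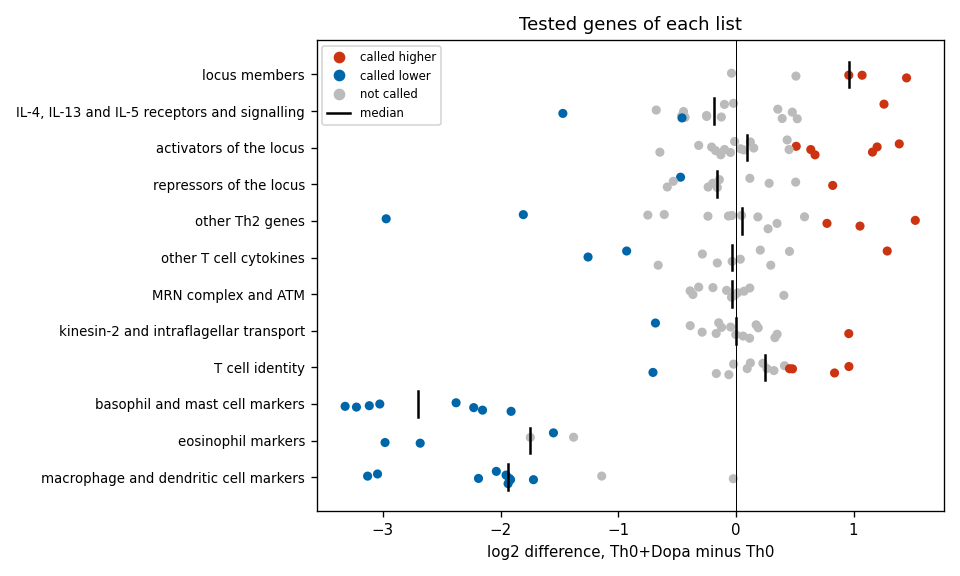
Log2 difference (Th0+Dopa minus Th0) of every tested gene in 12 lists, 1 point a gene, with the list's median as a black bar. The 5 genes of the locus have a median of 0.96, the activators 0.095, the receptor and signalling genes -0.19, and the basophil and mast cell markers -2.70.

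The partners of Rad50 and Kif3a were examined in the same way. Of 11 tested genes of the MRN complex (MRE11, RAD50 and NBN) with ATM and associated factors, limma called 0, and 1 had an unadjusted p under 0.05. Over all 11423 tested genes 6.28% were called higher and 4.39% lower, and 3177 had an unadjusted limma p under 0.05. Mre11a stood at 49.2 and 49.7 FPKM in Th0 and at 48.1 and 51.9 FPKM with dopamine (0.014 ± 0.11, interval -0.26 to 0.29, adjusted p = 0.951). Nbn had -0.32 ± 0.12 (adjusted p = 0.163). Among 15 tested kinesin-2 and intraflagellar transport genes, Kif3a was the only one called higher, the median was -0.00089 and Ift80 fell by 0.68, but not with no block (adjusted p = 0.175). Kif3b, the subunit that pairs with Kif3a in the motor, stood at 23.2 and 22.1 FPKM in Th0 and at 23.6 and 20.4 FPKM with dopamine (-0.044 ± 0.13, interval -0.37 to 0.28, adjusted p = 0.866). Kifap3, the adaptor of the motor, had 0.12 ± 0.26 (adjusted p = 0.818).

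Markers of basophils and mast cells and of eosinophils, which can also make Th2 cytokines, fell while Il4 rose. The 14 basophil and mast cell markers summed to 399 and 542 FPKM in Th0 and to 49.9 and 48.1 FPKM with dopamine. All 8 tested members were called lower, against 4.39% of all tested genes, with a median of -2.70. The basophil protease gene Mcpt8 fell from 142 and 187 FPKM to 15.8 and 15.03 FPKM, and Cpa3 from 68.8 and 102 FPKM to 8.46 and 7.70 FPKM. The mast cell protease genes Mcpt1, Mcpt4 and Tpsb2 were listed at 0 in all libraries. Eosinophil markers summed to 62.8 and 119 FPKM in Th0 and to 9.55 and 10.02 FPKM with dopamine, with 3 of 5 tested called lower. Macrophage and dendritic cell markers summed to 278 and 352 against 105 and 75.8 FPKM, with 9 of 11 called lower. Cst3, which was not called, stood at 57.7 and 62.4 FPKM in Th0 and at 74.9 and 46.6 FPKM with dopamine. It thus made up most of the dopamine sums of that list. Erythroid and platelet markers summed to 61.4 and 70.4 against 16.3 and 18.4 FPKM, with 3 of 3 called lower. Several tested markers, such as Ear1, Ear2, Epx, Csf1r and Itgam, lay under 1 FPKM in both dopamine libraries. They passed the filter only through Th0, so the counts called lower in these lists depend partly on the filter. In bulk RNA, fewer cells of a type and less RNA per cell cannot be told apart.

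Of 5 tested markers of ILC2 and NKT cells, the IL-7 receptor gene Il7r rose and Il1rl1 and Arg1 fell, genes that other cells share. Over all tested genes 6.28% were called higher and 4.39% lower. The median of the 5 was 0.32, with 3 estimates above 0, and the summed level of the whole list was 177 and 159 FPKM in Th0 and 198 and 204 FPKM with dopamine. Id2 alone stood at 156 and 126 FPKM in Th0 and at 175 and 177 FPKM with dopamine, and the median is its difference. The sum and the median therefore mostly describe Id2, and the untested markers of the list lay under the filter. With no block Il1rl1 and Arg1 were not called, and without the trend none of the 3 was. Nmur1 was listed at 0. B cell markers summed to at most 5.46 FPKM and CD8 T and NK cell markers to at most 6.65 FPKM, with 1 tested gene in each and neither called. T cell identity genes summed to 2360 and 2306 FPKM in Th0 and to 2532 and 2336 FPKM with dopamine. Among these 14 genes limma called 4 higher and 1 lower, against 6.28% and 4.39% of all tested genes. Their median was 0.25, or 0.0059 with a common FPKM sum. With no block 1 of these 5 calls was left, and without the trend none. Scaled to a common sum of these genes, Il4 had 1.39, Il13 1.01, Kif3a 0.90, Il5 0.46 and Rad50 -0.095, and the same 3 genes were called (adjusted p = 0.00973, 0.0147 and 0.0382). The part of the falling markers in these results was not tested.

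**Figure D4:**
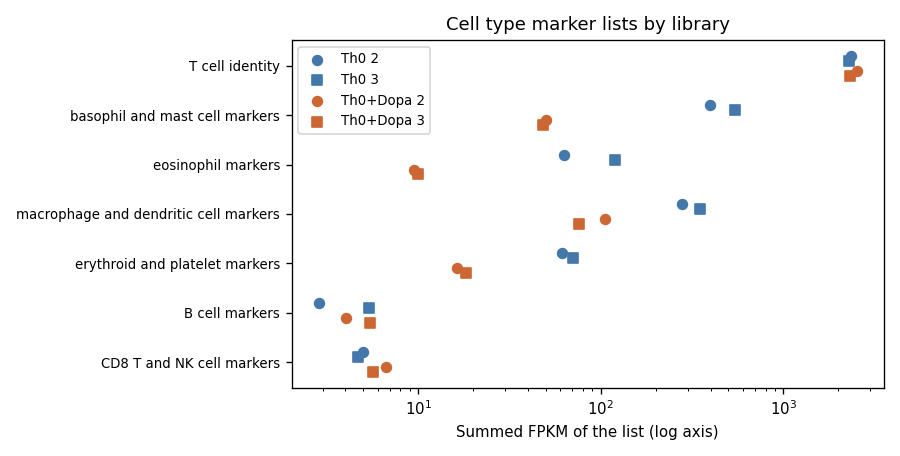
Summed FPKM (log axis) of 7 marker lists in each library, circles for the libraries numbered 2 and squares for those numbered 3. The T cell identity sums of the 4 libraries lie between 2306 and 2532 FPKM, while the basophil and mast cell sums fall from 399 and 542 FPKM in Th0 to 49.9 and 48.1 FPKM with dopamine.

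The plot of the 5 genes by setting shows how far these differences moved with the choices of the computation. Il4 ranged from 1.20 with a common FPKM sum to 1.72 after the GC and length correction, Il13 from 0.82 to 1.18, and Kif3a from 0.72 to 1.04. Of the 55 genes called among the locus, its neighbours and the lists, 24 were called without limma's trend and 0 in each fit that left out 1 of the 4 libraries, while those tested kept their sign in each setting (43 at a mean of at least 5 FPKM, 55 in the others).

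**Figure D5:**
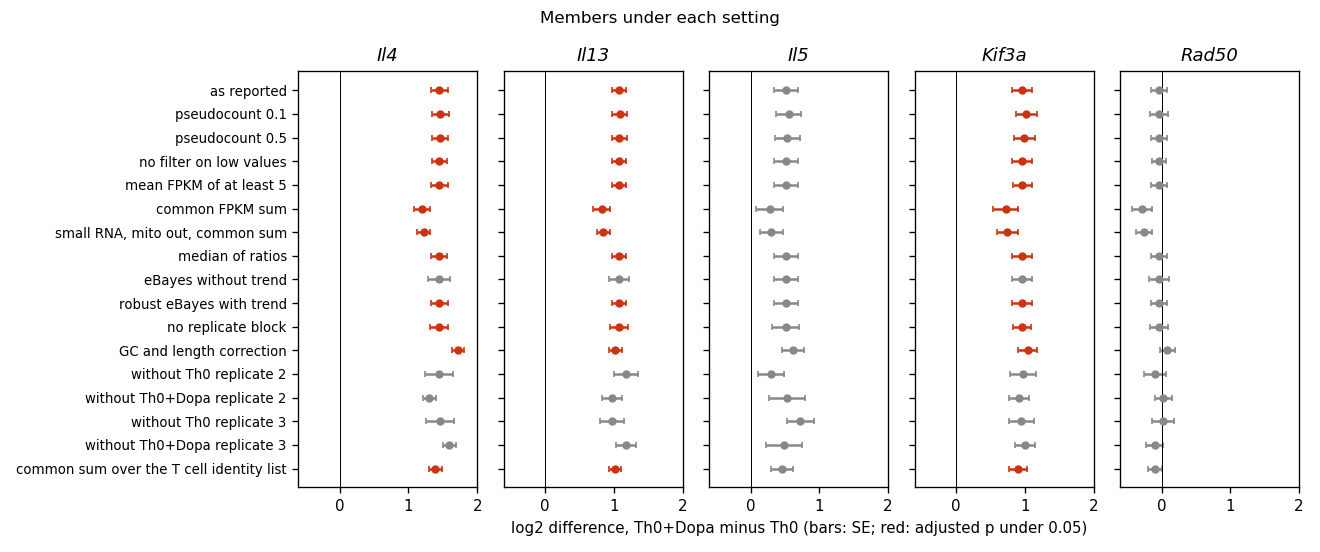
Log2 difference (Th0+Dopa minus Th0, bars are SE) of each of the 5 genes under 17 settings of the computation, red where the limma adjusted p was under 0.05. Il4, Il13 and Kif3a stay above 0 in each, between 0.72 and 1.72, and lose the call without limma's trend and when any library is left out.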

How the data were processed

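RNA was measured in 4 libraries. Per the labels' protocols, DNase-treated total RNA was made into stranded libraries depleted of ribosomal RNA and globin mRNA and sequenced paired-end. The authors deposited FPKM, in 2 separately made tables. Per the submitters' processing notes, the tools included STAR 2.4.2, Trimmomatic 0.35 and Cufflinks 2.2.1, with the build mm10. Annotation release, scaling options and strand use were not stated. GENCODE M21 (GRCm38) named 36423 of 38282 IDs. Genes with a mean of at least 1 FPKM over the libraries (11423) were fitted with limma 3.58.1 (lmFit, eBayes with trend, R 4.3.3) on log2(FPKM + 1), two-sided, with the table as a block and Benjamini-Hochberg adjustment over all tested genes. Changes of genes with low FPKM come out too small on this scale. The fit has 1 residual degree of freedom per gene and a prior worth 4.70. Fragments were estimated from single-transcript genes of at least 2 kb, where 87.2% to 89.1% of low values lay within 0.15 of a whole fragment. The chance share is 30% for a step fixed in advance. The step was instead chosen within a set range to make this share largest, so 30% is not its chance level. The GC and length correction used loess (span 0.3). The genes and lists were chosen with earlier results of these data known. Named genes are the 5 genes of the locus, called neighbours, up to 6 called members of each list, regulators named in advance and the 5 nearest in pattern. Sept8, Hspa4, Gm17334, Cd8a, Cd8b1, Id2, Il13ra2, Nmur1 and Mcpt1, Mcpt4 and Tpsb2 were named after their values were seen. So were Cst3, Csf1r, Itgam, Ear2 and Epx.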

Additional observations from a re-analysis of the deposited data

How the results depend on the processing

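Pseudocounts of 0.1 and 0.5, filters, scalings, limma settings, the block, a GC and length correction and each library left out were tried. Scaling to the T cell identity list was added after the data were seen. Il4, Il13 and Kif3a kept their direction in all, and their call in all but the fits without limma's trend (1.45, 1.07 and 0.96, adjusted p = 0.0507, 0.0616 and 0.0711) and those that left out 1 library. Il5 was called in none. In the fits that left out 1 library, which had no block, used median-of-ratios scaling and assumed that a lone library varies like the other group, Il4 ranged from 1.30 to 1.60, Il13 from 0.97 to 1.18, Kif3a from 0.92 to 1.00, Il5 from 0.30 to 0.72 and Rad50 from -0.10 to 0.026. Rad50, not called in any, turned positive without Th0+Dopa 2 (0.026), without Th0 3 (0.022) and after the GC and length correction (0.085). The cause was not tested.

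Over all tested genes, 1218 were called, against 740 with no filter on low values, 256 without the trend, 751 with the T cell identity scaling and 0 to 4 with 1 library left out, where 1253 to 2772 had an unadjusted p under 0.05. With no replicate block 496 were called, and Il4, Il13 and Kif3a remained among them (adjusted p = 0.00995, 0.0193 and 0.0262). The labels do not say that a number pairs the libraries. Deviations of same-numbered libraries from their group means correlated at r = 0.087 across 11423 genes, which are not independent. Of the neighbours, 2 were called, against 3 with either other pseudocount, the filter at 5 FPKM and either common sum, 0 without the trend, 1 with no replicate block (Uqcrq) and 0 with any library left out, where 2 to 4 had an unadjusted p under 0.05. Over all lists, 51 genes were called, against 25 without the trend and 0 with 1 library left out, where 48 to 68 had an unadjusted p under 0.05. Il5 and Kif3a had the fewest fragments (78 at the lowest).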
